A study of Mus musculus with 6 samples.

Results

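The array carries a set of probes for long intergenic RNAs, each named by a genomic interval and a strand rather than by a gene, and this section describes what those probes measured in mouse kidney cortex with and without the C3a receptor. Members were all transcript probes whose long name in the array files opens with lincRNA and gives the interval on mouse build mm9. The column headed gene name opens with that word for 0 probes, so membership was read from the long name, which sits in the description column. This gave 4460 probes of 56605 transcript probes on the array, in 4505 spots. They cover 3240 named intervals, which merge into 2156 separate loci where intervals on either strand overlap. The gene name itself is an interval for 4450 members and a symbol for 10.

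RNA came from the renal cortex of male C57BL/6 mice and was hybridised to 6 one-colour arrays, 3 labelled WT control and 3 labelled C3aR-/- control. Per the labels, the control arm was 8 weeks old when a chow with 10% of calories from fat was started, and received vehicle injections in place of streptozotocin, and tissue was taken 20 weeks after induction. Both genotypes of this comparison shared that chow and vehicle. The labels do not say how the C3aR-/- line was made, whether littermates served as controls, or that each sample is a separate animal, so the p-values speak only to the spread among the samples given. Diabetic groups were not analysed here. The comparison asks which long intergenic RNAs differ between the genotypes in mice without induced diabetes.

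Long intergenic RNAs are transcribed from stretches of the genome between protein-coding genes and are not translated into long proteins. Some, such as Xist and Neat1, have known work in the nucleus, in silencing a chromosome or building a nuclear body, while most annotated ones have no assigned function. They are typically present at lower levels than messenger RNAs, differ between tissues more than messenger RNAs do, and are often cleared in the nucleus by the RNA exosome.

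Each member is a single 60-base probe, with 2231 on the forward and 2229 on the reverse strand. The files place 4369 of them on the genome, all on the strand in the name and 4368 inside the named interval, and 91 have no position. Intervals were 62 to 538251 bases long with a median of 7224.5, so 1 probe reads a small part of most of them. The interval of 478 members also contains a probe of a named gene on the same strand. Named genes are those with a RefSeq symbol and include non-coding ones such as Gas5 and Pvt1. The count therefore does not show how many intervals hold a protein-coding gene.

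The sequences below are the probes on which the results turn. The first set holds 3 intervals with a probe on each strand where the probes overlap, and capitals mark the stretch that is the reverse complement of the other strand's probe, 17, 45 and 25 bases long. Coordinates are mm9, and every sequence runs 5′ to 3′ on its own strand.
A_30_P01031062 (chr3:104438388-104438447, forward): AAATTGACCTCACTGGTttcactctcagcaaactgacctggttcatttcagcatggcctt
A_30_P01027784 (chr3:104438345-104438404, reverse): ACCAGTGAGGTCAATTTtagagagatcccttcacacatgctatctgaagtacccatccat
A_30_P01023504 (chr12:21585041-21585100, forward): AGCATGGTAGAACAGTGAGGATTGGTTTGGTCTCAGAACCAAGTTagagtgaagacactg
A_30_P01026411 (chr12:21585026-21585085, reverse): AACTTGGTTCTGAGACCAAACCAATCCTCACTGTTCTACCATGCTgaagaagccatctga
A_30_P01032578 (chr5:105076409-105076468, forward): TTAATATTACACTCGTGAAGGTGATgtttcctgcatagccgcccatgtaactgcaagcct
A_30_P01027222 (chr5:105076374-105076433, reverse): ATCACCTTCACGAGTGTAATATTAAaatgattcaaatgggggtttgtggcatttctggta

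The next set holds the 3 members with the largest falls, then a pair of probes that fell together at 1 locus, then the 2 largest rises among members above background on all arrays and a rise with a small spread. Capitals mark AATAAA, the hexamer best known from the ends of messenger RNAs.
A_30_P01031689 (chr9:89168696-89168755, forward): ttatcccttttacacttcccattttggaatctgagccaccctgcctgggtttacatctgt
A_30_P01025509 (chr10:74325683-74325742, reverse): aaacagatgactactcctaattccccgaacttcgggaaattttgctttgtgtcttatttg
A_30_P01020864 (chr10:97203040-97203099, forward): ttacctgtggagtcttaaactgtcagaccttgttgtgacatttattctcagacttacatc
A_30_P01024472 (chr11:35810479-35810538, forward): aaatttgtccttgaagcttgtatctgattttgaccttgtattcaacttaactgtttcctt
A_30_P01033672 (chr11:35810145-35810204, forward): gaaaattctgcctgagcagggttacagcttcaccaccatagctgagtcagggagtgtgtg
A_30_P01030745 (chr19:12085095-12085154, forward): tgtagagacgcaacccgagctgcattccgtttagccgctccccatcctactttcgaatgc
A_30_P01032141 (chr9:96968416-96968475, reverse): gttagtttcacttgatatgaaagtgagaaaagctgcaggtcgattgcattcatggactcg
A_30_P01019280 (chr8:91569542-91569601, reverse): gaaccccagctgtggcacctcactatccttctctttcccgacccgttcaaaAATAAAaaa

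Of these 8 probes only A_30_P01019280 holds the hexamer. On the probe's own strand AATAAA was found in 3.99% of members and in 10.3% of all other probes of the same length, and its reverse complement TTTATT in 2.76% and 3.94%. The share with AATAAA was 4.78% of members measured above background by the rule below and 3.49% of the rest. A match or its absence says only whether these letters lie in this 60-base window.

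Fewer members than other probes gave a signal, and more of them did so on the C3aR-/- arrays. The scanner software marks a spot as well above background when it exceeds the local background by a set margin. The number of members so marked was 1760, 1697 and 1724 in WT replicates 1, 2 and 3. It was 1840, 1916 and 1847 in C3aR-/- replicates 1, 2 and 3. The genotypes did not overlap, with means of 1727 ± 31.6 (SD, n = 3) and 1868 ± 42.0 (SD, n = 3), a difference of 141 (exact permutation test, two-sided, p = 0.1, the smallest p that 3 against 3 allows). Other transcript probes were also marked more often on the C3aR-/- arrays, at 57.3% to 58.6% against 56.0% to 57.0%, while for members the shares were 41.3% to 43.0% against 38.0% to 39.5%. The count uses no scaling between arrays. The C3aR-/- arrays were also brighter, with 75th percentiles of the processed signal of 712, 827 and 734 against 683, 662 and 685 in WT, and the part of this in the detection counts was not tested.

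**Figure D1:**
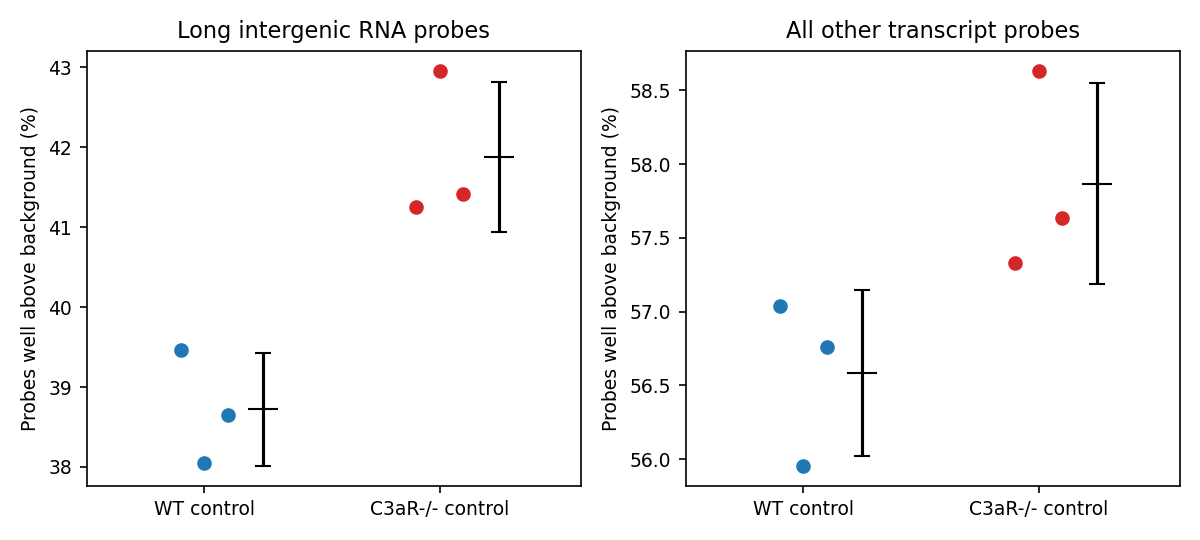
Share of probes well above background on each array, for the 4460 long intergenic RNA probes (left) and all other transcript probes (right), as points per array with mean and SD beside them (n = 3). The vertical axes span different ranges and do not start at 0. In both panels every C3aR-/- array lies above every WT array, and members lie between 38.0% and 43.0%.

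All 3 WT arrays detected 1543 members and all 3 C3aR-/- arrays 1688, with 1494 in common. A further 2198 members were above background on no array. Detection on all 3 arrays of one genotype and on none of the other occurred for 60 members in the direction of C3aR-/- (1.35%) and for 5 in the direction of WT (0.112%). Over all probes the shares were 0.666% and 0.113%. Members entered the test when every array of 1 genotype or of both had them well above background, which kept 1735 (38.9%) against 56.0% of other probes. Those that did not enter include 527 members seen on 1 to 5 arrays. Because this rule admits a member through the genotype in which it is bright, counts below describe the 1735 and not all members. The share of members tested ranged from 27.8% on chromosome X to 52.7% on chromosome 14.

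Facts of the arrays as a whole bear on every comparison below. Each array had 59305 transcript spots, of which 56.5% to 59.3% were well above background, and no spot was saturated. All WT arrays sat on one slide and shared one scan entry in the file headers, and all C3aR-/- arrays another slide and scan. Genotype therefore cannot be told apart from slide or scan. C3aR-/- replicate 1 stood out with 145 non-uniform spots, 3 of them on members, where the other 5 arrays had 2 to 8. The probe for C3ar1 (chr6:122798222-122798281) was above background on 1 WT array and on 0 C3aR-/- arrays, which gives no check of the genotype. All 10 proximal tubule markers listed were above background on all 6 arrays. The summed level of 7 B and plasma cell markers was 1.67 to 2.14 on the log2 scale in WT and -0.23 to -0.04 in C3aR-/-, with 3 called lower, 5 above background on all 6 arrays and Cd79a on none. The sums of 5 other lists were higher in C3aR-/- cortex without overlap, by less: proximal tubule at 9.70 to 9.76 against 9.46 to 9.57 with 3 markers called higher, collecting duct at 5.92 to 6.08 against 5.68 to 5.72, podocyte, adipocyte and liver. Of the collecting duct markers 2 were called higher and 1 lower, of the podocyte markers 1 higher, and of the adipocyte and liver markers 0. Only 2 of 5 adipocyte markers were above background on all 6 arrays, and Adipoq and Plin1 were on none. In cortex homogenate fewer cells of a type and less RNA per cell cannot be told apart. The part of these differences in the results was not tested.

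Levels below are log2 processed signal minus the array's 75th percentile, and a change is the C3aR-/- mean minus the WT mean on that scale. A probe is called when limma's adjusted p, taken over all 30931 probes tested, is under 0.05. In C3aR-/- cortex 119 members were called higher and 133 lower, 252 of 1735 or 14.5%. Over all probes tested, 11.7% were called, 6.18% higher and 5.49% lower, against 6.86% and 7.67% of members. The called members lie in 242 intervals and 230 loci. At an unadjusted p under 0.05 there were 621 members, where 31.9% of all probes passed. The genotypes did not overlap in 677 of the tested members (39.0%), against 39.6% of all probes. The split between directions moved with the scaling: it was 173 higher and 112 lower with the array median in place of the 75th percentile, and 62 higher and 155 lower with normexp background correction. The median change was 0.02 for members and 0.03 for all probes, and the median SE was 0.13 and 0.10. Without WT replicates 1, 2 and 3 in turn 99, 69 and 108 members were called, and without C3aR-/- replicates 1, 2 and 3 in turn 165, 103 and 63. Without C3aR-/- replicate 1, the calls were 50 higher and 115 lower. In all, 48 members, 10 higher and 38 lower, were called in each of those 6 fits.

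**Figure D2:**
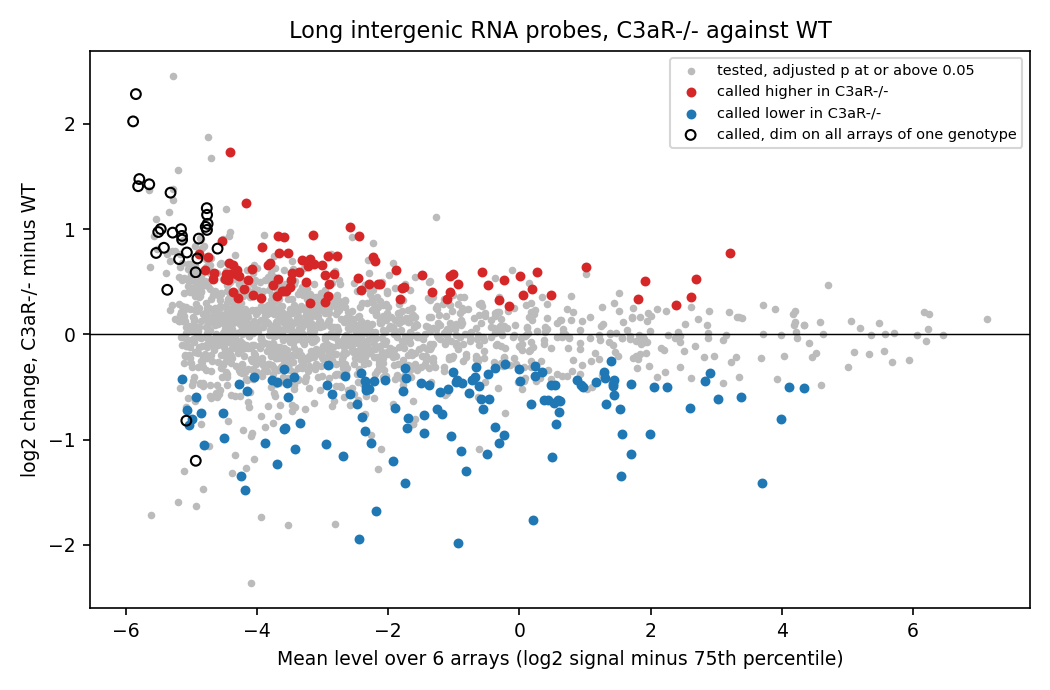
Change of each of the 1735 tested members (vertical, log2, C3aR-/- minus WT) against its mean level over 6 arrays (horizontal, log2 signal minus the 75th percentile). Red and blue points are the calls, 119 higher and 133 lower in all, and open circles mark the 28 called members that a whole genotype failed to show above background, most of them dim and higher. The largest called falls, down to -1.99, lie among members of middle level.

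Of the 119 called rises 86 were above background on all 6 arrays, and of the 133 called falls 124 were. Among these the median change was 0.53 for the rises and -0.57 for the falls. Of those rises 1 reached 2-fold, and of those falls 22. Over all probes above background on all 6 arrays, 4.49% of called rises and 12.7% of called falls did. The differences between these shares were not tested. Counting fitted changes whatever the background, 15 rises and 24 falls passed 2-fold, 39 in all, where 0.521%, 0.928% and 1.45% of all probes did. That count is not one of measured folds, since 12 of the 15 rises and 1 of the 24 falls were dim on every array of one genotype, and 2 and 1 more were dim on some. Of the 68 called members named in the text or listed by the same rules, 46 lost their call in at least 1 of 9 processing settings, most often without the filter on dim probes or with the replicate number as a block. Of the rises, 26 were on no WT array above background and 7 on 1 or 2, while of the falls 2 were on no C3aR-/- array and 7 on 1 or 2.

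The largest called fall was that of A_30_P01031689, in chr9:89167172-89168980 on the forward strand. Its level was -0.03, -0.06 and 0.27 in the WT replicates and -2.31, -1.79 and -1.69 in the C3aR-/- replicates. Every C3aR-/- array was therefore well below every WT array, a 3.96-fold fall (log2 change -1.99, SE 0.19, adjusted p = 0.00697). No probe of a named gene lies within 10 kb of it, the nearest being one of Mthfs, a folate enzyme, 33618 bases away.

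A_30_P01025509, in chr10:74325583-74396665 on the reverse strand, fell 3.84-fold. WT replicates stood at -1.55, -1.46 and -1.42 and C3aR-/- replicates at -3.38, -3.28 and -3.59 (log2 change -1.94, SE 0.10, adjusted p = 0.00238). The arrays of each genotype lay close together compared with the distance between genotypes. A_30_P01020864, in chr10:97196521-97207471 on the forward strand, had nearly equal WT levels of 1.08, 1.09 and 1.08. Its C3aR-/- levels were -0.48, -0.75 and -0.81, a 3.40-fold fall (adjusted p = 0.00248). Nearest named probes lay 94514 bases away for the former and 45630 bases away for the latter.

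A locus on chromosome 11 fell at a pair of separate probes. A_30_P01024472, in chr11:35805295-35817263, is a bright member, with WT levels of 4.29, 4.55 and 4.38 and C3aR-/- levels between 2.92 and 3.04. It fell 2.67-fold (adjusted p = 0.0025). A_30_P01033672, in the nested interval chr11:35810031-35810205 and 274 bases away on the same strand, gave 0.03, 0.10 and 0.07 in WT and -1.07, -0.95 and -1.17 in C3aR-/- cortex, a 2.19-fold fall (adjusted p = 0.0031). Both genotypes were tight at both probes, and both calls held with any 1 array left out. The nearest named gene on either strand was Tenm2, which encodes a teneurin, a membrane protein of cell adhesion. Its probe on the opposite strand 10097 bases from the former fell by 0.89 (adjusted p = 0.0384).

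Other large falls had the same shape. A_30_P01032937, in chr1:74084292-74138492 on the forward strand, fell 2.66-fold, from -0.97, -0.98 and -1.15 to -2.21, -2.53 and -2.59 (adjusted p = 0.00536). A_30_P01029029, in chr7:140081171-140123058 on the reverse strand, fell 2.46-fold, from -0.28, -0.10 and -0.10 to -1.42, -1.45 and -1.50 (adjusted p = 0.00248). A_30_P01023905, in chr12:82495575-82516300 on the forward strand, fell 2.54-fold to levels of -4.80 to -4.99 (adjusted p = 0.00553). These 3 kept their call with any 1 array left out.

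Also among the 10 largest falls, A_30_P01027784 is described with its opposite strand. The other 2 of the 10 were less even. A_30_P01025619, in chr6:146493273-146493932, fell 2.78-fold (adjusted p = 0.0492), with WT levels of -3.81, -3.88 and -2.63 and C3aR-/- levels of -5.07, -5.05 and -4.63. WT replicate 3 stood apart from replicates 1 and 2, and the member's call was lost in 5 of the 6 fits with 1 array left out (adjusted p up to 0.122, without C3aR-/- replicate 2). A_30_P01026605, in chr16:39984031-40081556, fell 2.54-fold (adjusted p = 0.038), with C3aR-/- levels of 1.53, 0.54 and 0.55. Here replicate 1 lay nearer to the WT levels of 2.07 to 2.46 than the others, and its call too was lost in 5 of those 6 fits (adjusted p up to 0.11, without C3aR-/- replicate 3).

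**Figure D3:**
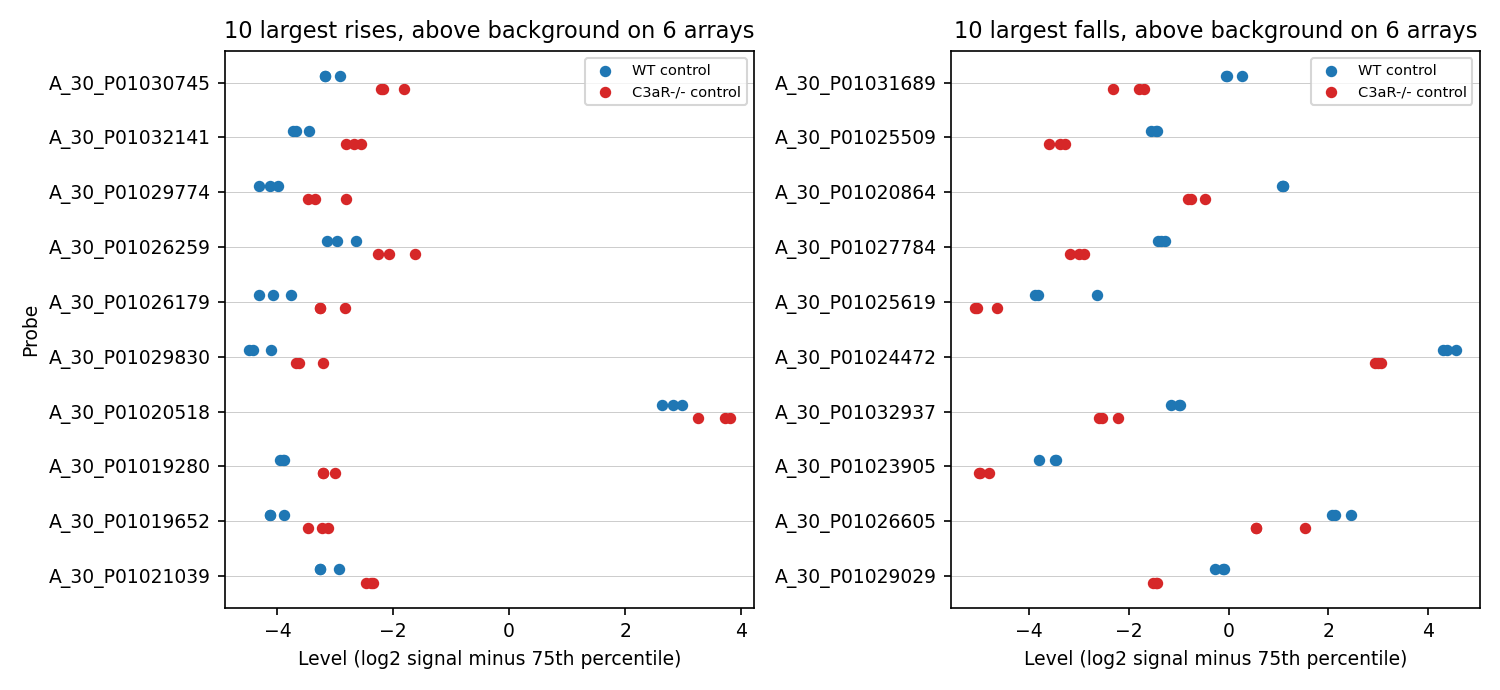
Level on each of the 6 arrays (log2 signal minus the 75th percentile) for the 10 largest called rises and the 10 largest called falls among members above background on all arrays, one row per probe. Rows were chosen among calls whose genotypes do not overlap, so the separation is set by the choice. The changes are larger for the falls (log2 changes of -1.30 to -1.99) than for the rises (0.75 to 1.02). Levels are to be compared along a row and not between probes.

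Among members above background on all arrays the largest rise was that of A_30_P01030745, in chr19:12084892-12085332 on the forward strand. WT levels were -3.17, -2.91 and -3.19 and C3aR-/- levels -2.22, -2.18 and -1.81. The rise was 2.03-fold (log2 change 1.02, SE 0.14, adjusted p = 0.0151), and without WT replicate 1 the adjusted p was 0.0516. A_30_P01032141, in chr9:96964067-96973567 on the reverse strand, rose 1.92-fold, from -3.46, -3.68 and -3.74 to -2.67, -2.82 and -2.56 (adjusted p = 0.00977), and kept its call with any 1 array left out. So did A_30_P01019280, in chr8:91569369-91594119 on the reverse strand, which rose 1.71-fold from -3.89, -3.90 and -3.96 to -3.01, -3.21 and -3.22 (adjusted p = 0.00851).

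A_30_P01020518, in chr9:78104935-78116974 on the forward strand, was the bright exception among the 10 largest rises. It stood at 2.99, 2.64 and 2.82 in WT and at 3.81, 3.73 and 3.25 in C3aR-/- cortex, a 1.71-fold rise (adjusted p = 0.0403) that was lost in 5 of the 6 fits with 1 array left out (adjusted p up to 0.109, without WT replicate 2). The other 6 rises among the 10 were 1.68-fold to 1.92-fold, at levels between -4.48 and -1.63. Each of them lost its call in at least 2 of the fits with 1 array left out, with adjusted p up to 0.103 without WT replicate 2 for 4 of them, and up to 0.0673 without C3aR-/- replicate 3 for A_30_P01019652 and A_30_P01021039.

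Where a whole genotype failed to show a member above background, only a bound can be given. Its dimmer side takes each array's probe value, raised to the array's lowest well-above-background level where it falls under that, and the mean of these is set against the brighter genotype's mean. A_30_P01025847, in chr16:34524589-34573439, was at least 1.95-fold higher in C3aR-/- cortex (adjusted p = 0.00763), with C3aR-/- levels of -4.03, -4.24 and -4.23 and WT levels of -5.16, -5.52 and -5.42. The next 4 bounds lay between 1.81-fold and 1.91-fold higher, for A_30_P01027946, A_30_P01032627, A_30_P01021811 and A_30_P01026606. In the other direction A_30_P01023504, in chr12:21584725-21595050, was at least 2.04-fold lower (adjusted p = 0.00409), from WT levels of -4.30, -4.32 and -4.38. A_30_P01021493, in chr3:93564825-93576725, was at least 1.65-fold lower (adjusted p = 0.0238). These bounds are smaller than the fitted changes of the same probes, which ran to a log2 change of 1.20. An adjusted p beside a bound is that of the fitted change, which uses values under the background level. It does not test the bound. Each of these members entered the test through its brighter genotype alone.

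In 832 intervals the array carries probes on both strands. The forward strand alone was tested in 174 of them, the reverse strand alone in 200, both in 187 and neither in 271. Of the 187, taking the brightest tested probe per strand, 102 (54.5%) changed with the same sign on both strands and 85 with opposite signs. At least 1 strand was called in 67 and both in 4, each time in the same direction. Single probes were called at 11.7% over all probes tested, and no share for pairs of other probes was taken. In each of those 4 intervals the probe of 1 strand entered the test only through its brighter genotype. In chr12:21584725-21595050 and chr3:51138643-51146693 the probes also overlap, so the equal directions are not independent readings. In 34 of the intervals tested on both strands the probes overlap in position, and 23 of those had the same sign. In 148 they do not overlap, and 78 of those had the same sign. The difference between those shares was not tested.

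The 3 overlapping pairs printed above differed in what each strand showed. In chr3:104415775-104442425 the reverse probe A_30_P01027784 fell 3.20-fold, from -1.36, -1.27 and -1.42 to levels between -3.18 and -2.90 (adjusted p = 0.00248). Its forward partner A_30_P01031062, which shares 17 bases with it, had WT levels of -4.94, -4.40 and -4.87 and C3aR-/- levels of -5.33, -6.83 and -4.12. Those levels overlap between genotypes, with a log2 change of -0.69 that was not called (adjusted p = 0.499).

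In chr12:21584725-21595050 both strands were called lower. The forward probe A_30_P01023504 gave the bound above, and the reverse probe A_30_P01026411, which shares 45 bases with it, fell 1.33-fold from 1.47, 1.65 and 1.42 to 1.01, 1.07 and 1.21 (adjusted p = 0.0424). That second call was lost in all 6 fits with 1 array left out (adjusted p up to 0.109, without C3aR-/- replicate 2). In chr5:105063625-105077700 the reverse probe A_30_P01027222 fell 2.20-fold, from 2.21, 2.37 and 2.23 to 1.28, 1.05 and 1.06 (adjusted p = 0.00455). Its forward partner A_30_P01032578 had a log2 change of -0.51 (adjusted p = 0.0967).

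Where the probes lie apart, strands could part ways. In chr14:33923944-34003394 the forward probe A_30_P01021530 fell 1.93-fold, from 2.03, 2.08 and 1.98 to 1.11, 1.06 and 1.08 (adjusted p = 0.00295). The reverse probe A_30_P01023400, 384 bases away, stood at 0.30, 0.41 and 0.37 in WT and at 0.49, 0.40 and 0.38 in C3aR-/- cortex, a change of 0.07 (SE 0.07) that was not called. In chr3:19179899-19216399 the forward probe A_30_P01027669 fell 1.92-fold (adjusted p = 0.00533) while the reverse probe A_30_P01024316, 5450 bases away, changed by -0.05 (SE 0.11). In chr1:74084292-74138492 the forward member fell 2.66-fold, as given above, and the reverse probe A_30_P01030180 changed by 0.16 (SE 0.12, adjusted p = 0.407). The difference between strands was not tested in any of them.

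The other 3 intervals called on both strands were chr3:51138643-51146693, lower by 1.04 on the forward strand, chr19:38392796-38398771, higher by 0.52 on the reverse strand, and chr7:134620707-134626739, higher by 0.75 on the reverse strand. The forward probes at the chr19 and chr7 loci were above background on no WT array and have no measured change, and the reverse probe of the first was above background on 1 C3aR-/- array. They were named for being called on both strands, after their values were seen.

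**Figure D4:**
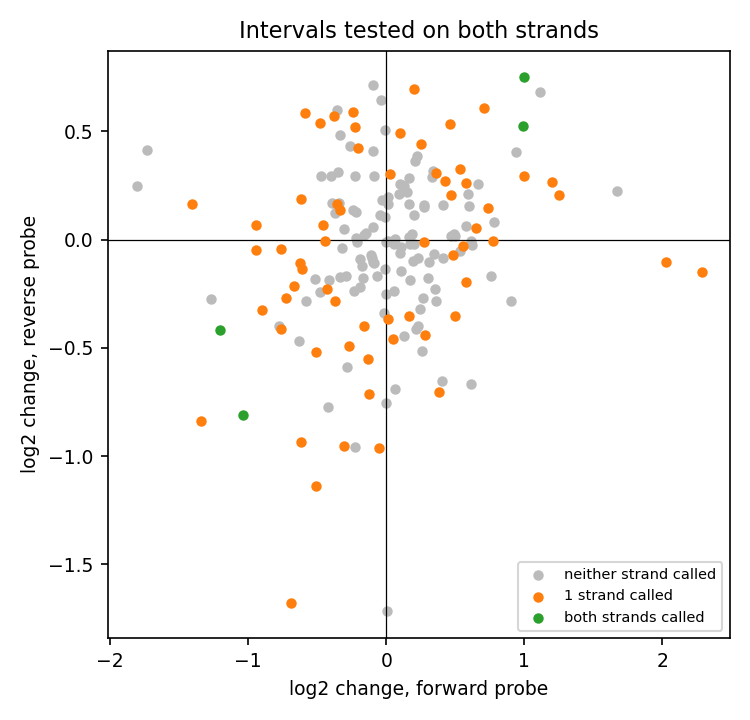
Change of the forward probe (horizontal, log2, C3aR-/- minus WT) against that of the reverse probe (vertical) in the 187 intervals tested on both strands. Green points are the 4 intervals called on both strands, orange those called on 1 strand and grey the rest, and 102 of the 187 lie in the quadrants of equal sign.

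Probes within the same interval and strand did not always share a sign either, counting changes that were not called. In 88 sets of 2 or more tested probes, all probes had the same sign in 49, and of the 76 sets with exactly 2 probes 40 had the same sign. A call was present in 27 sets, and every probe was called in 3 of them. No such share was taken for sets of other probes. In 4 sets 2 probes were called, and 1 set had calls both ways. Among sets of at least 3 probes, that of chr17:46972160-46997919 on the forward strand had A_30_P01024700 lower by 0.48 (adjusted p = 0.0212), with the other tested probes at -0.05 and -0.08. In chr12:45415565-45423519, also forward, A_30_P01032936 was higher by 0.36 (adjusted p = 0.0351) and the other 3 were at 0.08, 0.17 and 0.24 without a call. In chr14:22267795-22319045, on the reverse strand, A_30_P01030460 was higher by 0.58 (adjusted p = 0.0306) beside changes of 0.12 and -0.69 that were not called. These 3 calls were each lost in at least 4 of the 6 fits with 1 array left out, with adjusted p up to 0.0755, 0.111 and 0.0857, without C3aR-/- replicate 3 for the first and second and without WT replicate 2 for the last. Over merged loci, 12 had at least 2 calls on a strand, 7 with all calls one way and 5 with calls both ways. The probes called in opposite directions lay 27 bases apart on chromosome 19. They lay 8644 bases apart on chromosome 11, 10879 on chromosome 10, and 53767 and 156198 at the loci on chromosome 6.

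The forward strand of chr19:5771425-5848475 shows the disagreement at its closest. It lies opposite Neat1, the RNA scaffold of paraspeckles. A_30_P01020677 rose 1.51-fold, from levels of -1.02 to -0.59 in WT to -0.30, -0.39 and -0.13 (adjusted p = 0.0472). A_30_P01020769, 27 bases further along the same strand, fell 1.39-fold from 1.22, 1.25 and 1.08 to 0.82, 0.64 and 0.65 (adjusted p = 0.0261). The genotypes do not overlap at either probe, and neither call held with every array left out in turn, with adjusted p up to 0.133 and 0.0888 without C3aR-/- replicate 3. In contrast, A_30_P01027987 and A_30_P01026000, 24 bases apart in chr8:91569369-91594119, both rose, 1.25-fold and 1.32-fold, and neither call held in any of the 6 fits with 1 array left out. The remaining tested probe of that interval and strand, A_30_P01023672, had a change of -0.23 (adjusted p = 0.313).

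The nearest named gene was taken as the closest probe with a RefSeq symbol that is not a member, on either strand. Within 10 kb, 492 pairs of a member and a gene were tested on both sides, over 328 genes. The signs were equal in 280 (56.9%), in 185 of 309 pairs on the same strand (59.9%) and in 95 of 183 on opposite strands (51.9%). Across pairs, Pearson's r between the changes was 0.18 on the same strand and 0.04 on opposite strands, as a description, since pairs share arrays and some share a gene. The member was called in 68 pairs. The gene was called as well in 13 of those (19.1%), and in 44 of the 424 pairs with a member that was not called (10.4%), a difference that was not tested. Of the 13, the directions were equal in 9 and opposite in 4. These pairs are not independent, since Gm7072 enters through both A_30_P01030119 and A_30_P01029664, which lie 5 bases apart. Among the 9, A_30_P01032333 and the probe of Zfp229 were above background on no WT array. They entered the test only through C3aR-/-, where they are higher. With 1 array left out, 0 to 3 pairs were called in the same direction: 3, 0 and 2 without WT replicates 1, 2 and 3 and 0, 1 and 0 without C3aR-/- replicates 1, 2 and 3.

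Among these pairs was A_30_P01032333, in chr8:10886200-10905925 on the forward strand, with 4833411C07Rik, a transcript named from a cDNA clone. The member was on no WT array above background, at -6.61, -7.35 and -7.02, and on all C3aR-/- arrays, at -4.84, -4.76 and -4.51. That makes it at least 1.34-fold higher (adjusted p = 0.00559 for the fitted change, not for the bound). The probe of 4833411C07Rik, 1471 bases further along the same strand and inside the named interval, rose from -3.49, -3.82 and -2.54 to -1.01, -1.83 and -0.95, a log2 change of 2.02 (adjusted p = 0.0308).

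Eprn, the gene of a long non-coding RNA called ephemeron, formed the clearest opposite pair. A_30_P01024724, in chr13:73472571-73483846 on the reverse strand, fell 1.75-fold from 4.39, 4.48 and 4.32 to 3.69, 3.46 and 3.62 (adjusted p = 0.00891). The Eprn probe 2430 bases away on the same strand rose by 0.79 on the log2 scale, from 0.50, 0.60 and 0.68 to 1.36, 1.57 and 1.21 (adjusted p = 0.0155). The genotypes were separate at both probes, in opposite directions, although the Eprn probe lies within the member's interval.

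Other pairs changed together. A_30_P01030119 and A_30_P01029664, 5 bases apart in chr17:22420025-22457650, fell by 0.48 and 0.49, and Gm7072 on the same strand fell by 0.62 (adjusted p = 0.0307). On that strand of the merged locus 4 members were tested and only these 2 called. Another of the 4, A_30_P01030657, shares at least 25 bases with A_30_P01030119 and changed by 0.03 (adjusted p = 0.792). A_30_P01026762 rose by 0.55 beside Pdxk-ps, a pseudogene of pyridoxal kinase, which rose by 1.11 (adjusted p = 0.0199) from levels of -4.51, -4.42 and -3.86. A_30_P01029761 rose by 0.75 beside Zfp949, a zinc finger gene, whose 3 tested probes changed by 0.63, 0.32 and 0.12, the first and second of them called.

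Several pairs rest on 1 probe of a gene whose other probes gave other values. A_30_P01019907 fell by 0.44 beside Ttc37, a partner of the cytoplasmic exosome, whose nearest probe fell by 0.43. A further called probe of Ttc37 fell by 0.56 (adjusted p = 0.0483), while another called probe of it rose by 0.38 (adjusted p = 0.0478). Zfp937, a zinc finger gene beside the falling A_30_P01025441, had 1 probe at 0.46 (adjusted p = 0.0319) and another at -0.55 (adjusted p = 0.0641). Apex2, a DNA repair nuclease beside the rising A_30_P01024548, had 1 probe at -1.35 (adjusted p = 0.0343) and 3 others between -0.32 and 0.11, none of them called. The remaining 4 genes called beside a called member were Bicd2, Thap1 and Zfp229, in the same direction as the member, and Safb2, in the opposite one. Other probes of 3 of them gave no call, with changes of -0.0047 for Thap1, 0.04 for Zfp229 and 0.17, 0.11 and -0.21 for Safb2. The called Zfp229 probe was above background on no WT array, while its other probe was above background on all 6 arrays.

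**Figure D5:**
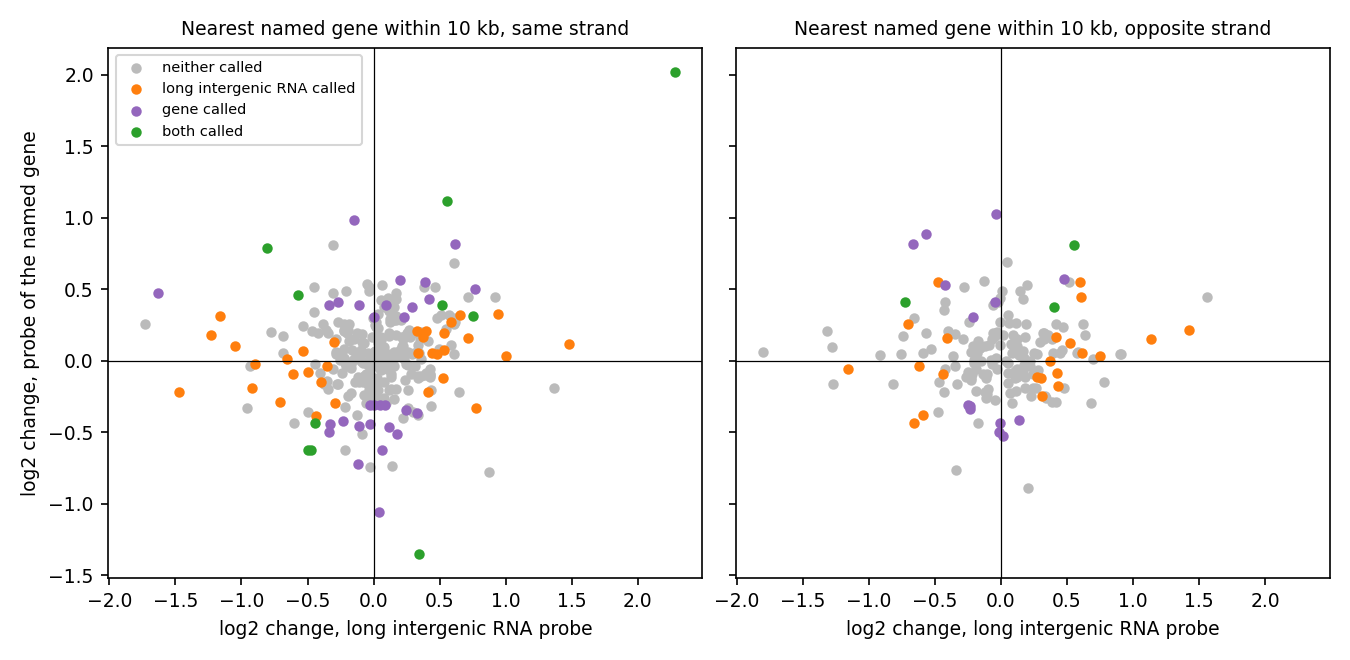
Change of the nearest named gene's probe (vertical, log2, C3aR-/- minus WT) against that of the member (horizontal) for the 492 pairs within 10 kb, split by whether the gene's probe lies on the same strand (309 pairs, left) or the opposite strand (183 pairs, right). Green marks pairs in which both were called, 10 on the left and 3 on the right, orange those in which only the member was, and violet those in which only the gene was.

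Most members called with a tested gene nearby had no called gene beside them. A_30_P01020878, in chr11:102983499-102994170, fell 1.58-fold from 0.88, 0.89 and 0.81 to 0.15, 0.25 and 0.21 (adjusted p = 0.00748), while Hexim2, an inhibitor of the elongation factor P-TEFb on the same strand 6280 bases away, changed by 0.01 (adjusted p = 0.934). A_30_P01029566 fell 1.63-fold (adjusted p = 0.00758) on the strand opposite Gse1, whose overlapping probe changed by 0.26 (adjusted p = 0.228). A_30_P01021628, in chr11:60728207-60745369, fell 2.24-fold (adjusted p = 0.0119) beside Map2k3os, an antisense transcript, at 0.31 (adjusted p = 0.0751), and without WT replicate 2 its adjusted p was 0.0509.

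Within 10 Mb of C3ar1 lie 56 members, of which 31 were tested and 3 called (9.68%, against 14.5% of all tested members). A_30_P01024297 and A_30_P01032787, 5257 bases apart near 121 Mb of chromosome 6 on the reverse strand, fell 1.42-fold and 1.44-fold (adjusted p = 0.0283 and 0.0194). A_30_P01021604, in chr6:128393530-128394127, rose 1.39-fold (adjusted p = 0.0395). None of the 3 calls held with every array left out in turn, with adjusted p up to 0.0908, 0.0721 and 0.12 without C3aR-/- replicate 3.

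The 10 members with a symbol name known long non-coding RNAs. NEAT1 stood at 4.85, 4.30 and 4.28 in WT and at 5.18, 4.61 and 5.04 in C3aR-/- cortex, a change of 0.47 (SE 0.21) that was not called (adjusted p = 0.19), and the array's other Neat1 probes changed by 0.52 and 0.55, also without a call. TUG1, a widely present nuclear RNA, changed by -0.06 (SE 0.10), and its other probe by -0.12. NRON, named for repressing the transcription factor NFAT, changed by 0.15 (SE 0.18).

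The member named KCNQ1ot1 was the only one of the 10 called. Its probe fell 1.73-fold, from -2.03, -1.94 and -2.03 to -2.93, -2.51 and -2.92 (adjusted p = 0.0217), and lost its call in 5 of the 6 fits with 1 array left out (adjusted p up to 0.0739, without C3aR-/- replicate 3). Kcnq1ot1 is an imprinted RNA that silences neighbouring genes on one parental chromosome. The member's probe is on the forward strand of chromosome 7, while the array's other 5 Kcnq1ot1 probes are on the reverse strand. The fall of the member's probe is therefore no reading of the strand that those probes measure. Of those, 4 were tested, with changes of 0.04, -0.09, -0.24 and -0.83, the last called lower (adjusted p = 0.0113). XIST, TSIX, H19, HOTAIR and lincP21 were above background on no array, and PINC on 2 arrays of each genotype.

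Long non-coding RNAs that carry a gene symbol on other probes form a list of 46, of which 39 are on the array and 30 were tested. The brightest probe of 4 was called higher and of 1 lower, 16.7% against 11.7% of all probes, with a median change of 0.11 against 0.03. The measures differ, since the list takes the brightest probe of a gene and the others take every probe tested. The largest change of the list, -2.75 for Mir124-2hg, was not called (adjusted p = 0.0511), with C3aR-/- levels of -7.60, -5.46 and -4.89. Snhg6 and Snhg1, hosts of small nucleolar RNAs, rose by 0.84 (adjusted p = 0.0083) and 0.73 (adjusted p = 0.0158). Zfas1, another such host, rose by 0.82 (adjusted p = 0.00977), from 1.64, 1.80 and 1.93 to 2.69, 2.56 and 2.60. The other 7 such hosts tested from the list, Gas5, Snhg3, Snhg5, Snhg7, Snhg8, Snhg11 and Snhg12, were not called, with changes between -0.18 and 0.31. Lncpint rose by 0.67 (adjusted p = 0.0181). Mir22hg, the host of a microRNA, fell by 0.78 (adjusted p = 0.00702), from 1.65, 1.58 and 1.64 to 0.79, 0.78 and 0.95. The nuclear exosome and its cofactors, which degrade many nuclear non-coding RNAs, had 18 tested genes. Of these 1, Mphosph6, was called, lower by 0.38 on the log2 scale (adjusted p = 0.0347), and without any 1 array 0 were, while the median change of the list was -0.02.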

How the data were processed

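The authors deposited 1 scanner file per array, in which, per the file headers, Agilent Feature Extraction 10.7.1.1 gave each spot a background-subtracted intensity (the processed signal), mean and local background intensities, and other values such as detection flags. They also deposited a log2 table of the same arrays, with the same median of 5.38 in each column and a correlation of 0.995 to 0.996 with the processed signal. Its normalization is not stated in the labels or headers. It was used for an alternative only. The members and lists were chosen with earlier results of these data known. Members were taken from the description column, since the gene name column opens with lincRNA for 0 probes.

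The processed signal was log2-transformed, and the 75th percentile of an array's transcript spots subtracted. Control spots and outlier-flagged spots were left out, spots of a probe were averaged, and 3 members lacked an unflagged spot on an array. The test used limma 3.58.1 under R 4.3.3 without covariates (two-sided, lmFit then eBayes) on the 30931 probes that every array of 1 genotype or of both marked well above background, and p-values were Benjamini-Hochberg adjusted over those. Adjusted p-values are from this fit, or from the same fit with 1 array left out where the text says so. The fit was tested on simulated data. The number of arrays limits the precision. Symbols came from RefSeq (GRCm38.p6), for names only.

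Named members were called probes: the 10 largest rises and falls without overlap on all 6 arrays, the largest bounds, strand pairs and neighbours with the smallest p, calls near C3ar1, sets of at least 3 probes in an interval, and called members of the lists. Members with a symbol and loci with several calls were added after values were seen. Alternatives were 3 other scalings or background corrections, the deposited table, other filters, an intensity trend, the brightest probe per gene, a replicate block and leaving out each array.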

Additional observations from a re-analysis of the deposited data

How the results depend on the processing

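The count of 252 called members kept within 1.5 times under other scalings (285 with the array median, 292 with quantile normalisation, 217 with normexp) and with the deposited table (256), but was 99 without the filter on dim probes and 63 to 165 with 1 array left out. Counting only members whose gene name is an interval, an alternative chosen after seeing the data, gave 251. With the replicate number as a block it was 58, and the same-direction neighbour pairs 1, the named long non-coding RNA genes 2 and the exosome genes 0. The numbers do not pair the arrays (correlations of same-numbered deviations 0.043, 0.008 and -0.060). The 39 members called at 2-fold were 11 with normexp, 23 on probes above background on all 6 arrays and 23 to 40 with 1 array left out. Without the filter the median change was -0.14, same-direction neighbour pairs 1 and exosome genes 0. Same-sign strand pairs were then 435, out of more pairs than the 187 tested in the main fit. Within 50 kb 14 neighbour pairs were called in the same direction and 10 in opposite ones, against 9 and 4 within 10 kb. With 1 array left out the same-direction pairs were 0 to 3. Named long non-coding RNA genes called were 8 with normexp, 8 with the intensity trend and 3 to 7 with 1 array left out. Exosome genes called were 2 with quantile normalisation, 2 with normexp, 3 with the trend, 2 with the brightest probe and 0 with any array left out. With 1 array left out, the median change was -0.01 to 0.05, same-sign strand pairs 94 to 107 and the detection difference 117 to 157. The median change turned below 0 with normexp (-0.04), on probes above background on all 6 arrays (-0.01), without the filter and without WT replicate 3, and the majority of calls turned from lower to higher with the array median (60.7% higher) and quantile normalisation (53.8%). Of the 68 named called members, 22 kept their call in all 9 processing settings and 46 lost it in at least 1. Over the 84 named members tested, called or not, the result was weaker for 36 without the filter, 42 with the block and 13 with normexp. The cause of these shifts was not tested, except that fewer arrays or members enter where arrays or probes are left out.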
